A study of Mus musculus with 8 samples.

Results

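Serine and folate one-carbon metabolism was represented by 10 genes, taken by name from the pathway. They are the serine synthesis genes Phgdh, Psat1 and Psph, the cytosolic folate enzyme genes Shmt1 and Mthfd1, the mitochondrial folate enzyme genes Shmt2, Mthfd1l and Mthfd2, the folate carrier gene Slc19a1 and the methionine cycle gene Ahcy. All 10 had at least 1 probe set annotated to that gene alone, 25 probe sets in all, out of 18193 genes so represented on the array. The samples were germinal centre (GC) B cells, the dividing B cells of an immune response in a lymphoid follicle, sorted from the spleens of 8-week-old GFPMYC/C57BL6 mice 12 days after immunization with sheep red blood cells. Both groups came from mice that carry the GFP-MYC fusion, were enriched for B cells with magnetic beads and were gated as PNAhi and CD95hi; GFP then parted them into 4 MYC-positive and 4 MYC-negative samples, which the sample descriptions join in 4 pairs. MYC-negative therefore means low in GFP within the same gate, and not a lack of the Myc gene. The labels speak both of sorting each mouse and of pools of spleen cells, so whether a pair is 1 animal is not given. The p-values set a difference against the spread between these 4 pairs. In the limma fits that spread is drawn toward the spread of other genes of similar signal.

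One-carbon metabolism moves single carbon units on folate. Serine is made from a glycolytic intermediate by PHGDH, PSAT1 and PSPH in turn, or taken up, and serine hydroxymethyltransferase splits it into glycine and a folate-bound carbon, by SHMT1 in the cytosol and SHMT2 in the mitochondrion. In the usual direction in growing cells the mitochondrial enzymes MTHFD2 and MTHFD1L oxidise that carbon and release it as formate, which the cytosolic enzyme MTHFD1 puts back on folate for purine and thymidylate synthesis and, through methionine, for methylation reactions. The pathway is known for its use in dividing lymphocytes, and serine hydroxymethyltransferase genes are among the described targets of MYC.

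The start regions of these genes are shown because the genes moved together. RefSeq sequence of build GRCm38.p6, from 250 bases before to 50 bases after each annotated start, was searched on both strands for the E-box CACGTG, the motif that MYC with its partner MAX prefers, for the variant CACGCG, for the variant CATGCG, for the variant CATGTG, and for TGATGNAA, the core of the element bound by the stress factor ATF4. Among 12 windows of the 10 genes, 0 held CACGTG, 0 held CATGTG and 0 held TGATGNAA, where 7.15%, 14.2% and 3.97% of all 32851 windows did. The variant CACGCG stood in 5 windows of 4 genes, Psat1, Shmt1, Shmt2 and Slc19a1, against 9.27% of all windows, and CATGCG in 2 windows, of Shmt2 and Slc19a1, against 6.5%. Matches may overlap, as the CATGCG pair of Shmt2 does, and a missing match says only that these letters are not in this window. The stretches below each show matches that lie before a listed start, for Shmt1, which had the largest difference of the 10 genes, for its mitochondrial counterpart Shmt2, and for Psat1, which had the smallest, with the motif in capitals and read on the strand of the gene (CGCGTG is CACGCG on the other strand).
Shmt1, chr11:60811321-60811386, minus strand, positions -121 to -56: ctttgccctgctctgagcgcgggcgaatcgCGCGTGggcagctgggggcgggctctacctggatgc
Shmt2, chr10:127522445-127522492, minus strand, positions -48 to -1: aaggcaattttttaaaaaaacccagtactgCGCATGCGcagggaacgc
Psat1, chr19:15925172-15925237, minus strand, positions -178 to -113: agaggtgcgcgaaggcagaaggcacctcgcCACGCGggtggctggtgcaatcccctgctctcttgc
Further CACGCG matches, of Psat1 at -46 to -41 from its other listed start, of Slc19a1 at -143 to -138 and of Shmt2 at 39 to 44, and the CATGCG match of Slc19a1, are not printed. CACGCG thus stood before a start both in the gene that differed most and in the gene that differed least.

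Every one of the 10 genes was higher in MYC-positive samples, in all 4 pairs (as were 19.3% of all genes), at an adjusted p under 0.05 (limma with the pair as a block, Benjamini-Hochberg over 11754 genes). Of all genes tested, 11.2% were called higher and 11.5% lower. The median log2 difference of the 10 genes was 1.01, where that of all genes tested was -0.06. The adjusted calls already place all 10 genes higher and 0 lower at an unadjusted p under 0.05. At that threshold 17% of all genes were higher and 19.2% lower. In 8 of the 10 genes all 4 MYC-positive signals lay above all 4 MYC-negative signals, as did those of 11.1% of all genes. Fewer cells of a kind and less RNA per cell cannot be told apart in such sorted bulk samples, and each array had been scaled to nearly the same mean, so a difference is relative to the rest of its array.

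The arrays and the sort were checked first. Trimmed mean signals ran from 495 to 497 over the 8 arrays. MYC-positive arrays had fewer bright probe sets: 34.7% to 39.2% exceeded a signal of 100, against 38.3% to 42.6% on MYC-negative arrays, lower in all 4 pairs, and the median log2 signal was 4.82 to 5.31 against 5.37 to 5.80. The log2 ratio of 3′ to 5′ signal lay between 0.48 and 0.65 in MYC-negative and between 0.44 and 0.55 in MYC-positive samples for the Gapdh control, and between 0.52 and 1.16 and between 0.85 and 1.16 for the beta-actin control, where it was higher on the MYC-positive side in 3 of 4 pairs. The exception was pair 4. Its MYC-negative array had a beta-actin ratio of 1.16, against 0.94 in its partner and 0.52 to 0.80 in the other MYC-negative arrays. That array also had the lowest share of bright probe sets in its group, 38.3%. The part of these array measures in the differences was not tested. Scaling set the balance of calls over the whole array: 49.4% of them were higher on the signals as they came, against 57.2% with quantile normalization and 85.4% with median centring, which raised the median of all genes by 0.15 and 0.44. The 10 genes were higher under both. Myc, on whose fusion the cells were sorted, was higher by 2.83 (log2, SE 0.28, n = 4 pairs, limma adjusted p = 0.000694), which checks the labels.

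Markers of GC B cells and of other cells were read beside these. Of 11 GC B cell markers tested, 5 were lower in MYC-positive samples (Mybl1, Pax5, Cr2, Cd22 and Fas) and 0 higher by limma. At an unadjusted p under 0.05, 10 of the 11 were lower and 0 higher, against 19.2% and 17% of all genes. Their median log2 difference was -0.53. The summed signal of these markers ran from 61443 to 75562 in MYC-negative and from 45348 to 55896 in MYC-positive samples. Ms4a1 (geometric means 14207 and 12840) and Bcl6 (10647 and 8558) were bright in both groups, while Pax5 was dim (148 and 44.2). Among 5 plasma cell markers tested 2 rose, Sdc1 and Derl3. The myeloid list had 10 of 16 tested markers higher on the MYC-positive side, among them Csf1r, Slc40a1, Lyz2 and the complement genes C1qa, C1qb and C1qc, and 1, Apoe, lower. The summed signal of the 18 on the array ran from 9771 to 13077 in MYC-negative and from 11588 to 22536 in MYC-positive samples. Ctss, which was not called, made up most of each MYC-negative sum. Its signal ran from 7515 to 11714 in MYC-negative and from 7489 to 10576 in MYC-positive samples. C1qa lay between 2.12 and 12.5 in the former and between 51.1 and 477 in the latter, and Itgam was at most at 3.53 on any array. Of the T cell markers 3 were tested: Thy1 was higher (geometric means 14.5 and 73.6), Cd2 lower (4361 and 2418) and Cd8a not called, and Cd3d, Cd3e and Cd3g were at most at 28.7. No NK cell marker passed the filter, and of granulocyte and erythroid markers 1 each was tested and not called, although S100a9 reached 423 and S100a8 139 on a MYC-positive array, against at most 4.68 and 41.4 on MYC-negative arrays. The MYC-positive sample of pair 1 had the highest myeloid sum and pair 1 the highest median difference of the 10 one-carbon genes, 1.26, against 0.90, 0.90 and 1.18 in pairs 2 to 4. Without pair 1 all 10 differences were positive and 5 of 10 were called, against 3.43% of all genes called higher there, and called myeloid markers such as C1qa were higher on the MYC-positive side in the remaining pairs too, with C1qa at 160, 51.1 and 469 against 8.15, 6.63 and 2.12. The part of the myeloid signal in the differences was not tested.

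**Figure D1:**
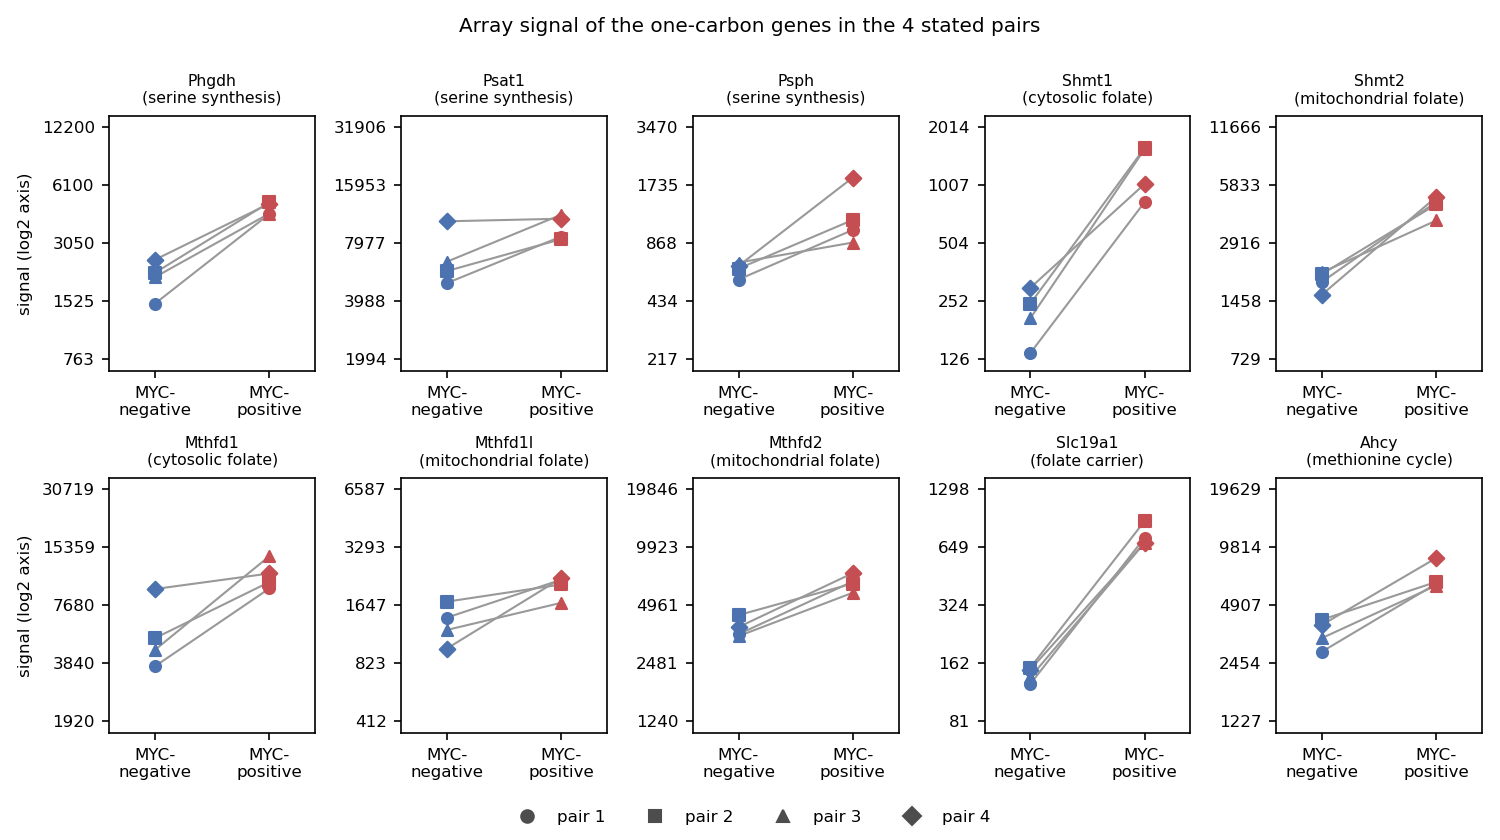
Array signal (log2 axis, each panel spanning the same fold) of the 10 one-carbon genes in MYC-negative (blue) and MYC-positive (red) samples; a line joins the 2 samples of a stated pair. All lines rise, steeply for Shmt1 and Slc19a1 (2.50 and 2.39 on the log2 scale) and nearly flat for Psat1 in pair 4 (0.044).

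Folate uptake was described by Slc19a1, which encodes the reduced folate carrier of the plasma membrane. Its signal was 127, 154, 137 and 151 in the MYC-negative samples of pairs 1 to 4, and 728, 888, 685 and 687 in the MYC-positive samples. The groups lay far apart and neither spread much. The difference was 2.39 (log2, SE 0.24, limma adjusted p = 0.000738), a fold of 5.24 with a 95% interval of 3.60 to 7.62, and the 4 pairs ranged only from 2.19 to 2.53. It ranked 82nd among the 11754 genes tested. The other probe sets of Slc19a1 were dimmer and differed by 2.51 and 2.53.

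Shmt1, the cytosolic serine hydroxymethyltransferase gene, had the largest difference of the 10. Its signals were 135, 245, 205 and 296 in MYC-negative samples of pairs 1 to 4, and 824, 1572, 1551 and 1023 in MYC-positive samples. The lowest MYC-positive value was well above the highest MYC-negative one. The difference was 2.50 (SE 0.25, limma adjusted p = 0.000743), a fold of 5.65 with a 95% interval of 3.81 to 8.38, and it ranked 68th of all genes tested. On this brightest probe set pair 4, with the highest MYC-negative signal, had the smallest difference (1.79) and pair 3 the largest (2.92). Its 4 probe sets differed by 2.11 to 2.96, and each was called higher.

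Shmt2, the mitochondrial counterpart, read 1840, 2021, 2058 and 1581 in MYC-negative samples of pairs 1 to 4, against 4788, 4644, 3831 and 5078 in MYC-positive samples. Here too the groups did not overlap. The difference was 1.29 (SE 0.16, limma adjusted p = 0.00165), a fold of 2.45 with a 95% interval of 1.89 to 3.17. In contrast to Shmt1, and again on the brightest probe set, pair 4 was the largest (1.68) and pair 3 the smallest (0.90). Of its 4 probe sets 3 were called, at 1.29 to 1.56, and the other was at 0.78 (limma adjusted p = 0.0560 over 45037 probe sets).

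Mthfd1 encodes the cytosolic enzyme that loads formate onto folate and reduces it stepwise. It read 3713, 5197, 4517 and 9345 in MYC-negative samples of pairs 1 to 4, and 9403, 10153, 13834 and 11248 in MYC-positive samples. The MYC-negative sample of pair 4 stood apart from its group and nearly reached the lowest MYC-positive value, although the groups did not overlap. It did so on this brightest probe set only. On the next it read 3789, level with pair 3 (3782), and on the dimmest 338, within the MYC-negative range of 309 to 476. The mean difference was 1.05 (SE 0.20, limma adjusted p = 0.00836), with 0.27 in pair 4 and between 0.97 and 1.61 in the others. The call ended without pair 1 (adjusted p = 0.0764) and with the spread modelled without an intensity trend (0.0592).

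Mthfd2, the mitochondrial dehydrogenase and cyclohydrolase gene, read 3516, 4420, 3438 and 3830 in MYC-negative samples of pairs 1 to 4, and 6608, 6445, 5775 and 7298 in MYC-positive samples. No MYC-positive sample fell among the MYC-negative ones, and the pairs were close together, at 0.54 to 0.93. The difference was 0.78 (SE 0.13, limma adjusted p = 0.00472), and adjusted p was 0.0552 without pair 1.

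Mthfd1l, whose product releases formate in the mitochondrion, had signals of 1423, 1722, 1228 and 983 in MYC-negative samples of pairs 1 to 4, and of 2238, 2114, 1698 and 2277 in MYC-positive samples. The groups overlapped narrowly, since the MYC-positive sample of pair 3 was below the MYC-negative sample of pair 2. Its difference of 0.66 (SE 0.19, limma adjusted p = 0.0370) was the second smallest of the 10 and was largest in pair 4 (1.21). The call was fragile: it ended without a filter on dim probe sets (0.0515), without the intensity trend (0.101) and without pair 1, 2 or 3 (0.153, 0.0951 and 0.0578).

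**Figure D2:**
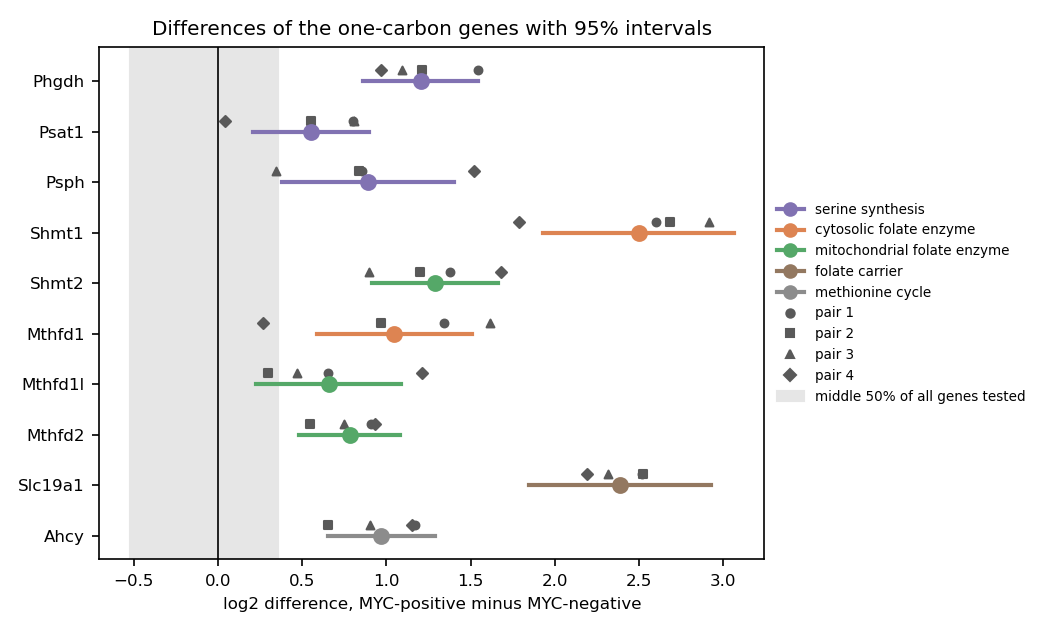
Log2 difference (MYC-positive minus MYC-negative) of each one-carbon gene with its 95% interval from limma, coloured by role, and the 4 pairs as small grey symbols; the grey band holds the middle 50% of all genes tested, from -0.53 to 0.36. All 10 estimates lie to the right of the band, with Shmt1 and Slc19a1 apart from the other 8.

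The cytosolic and mitochondrial folate enzymes were compared by how much each gene differed within a pair. The median difference was 1.77 for the 2 cytosolic genes and 0.78 for the 3 mitochondrial genes. The cytosolic value is only the midpoint of Shmt1 (2.50) and Mthfd1 (1.05), and Mthfd1 lay below the mitochondrial gene Shmt2 (1.29). Shmt1 exceeded Shmt2 by 1.21 (log2, SD 0.81, n = 4 pairs), a ratio of folds of 2.31, and did so in 4 of 4 pairs, by 1.22, 1.48, 2.02 and 0.11. An exact two-sided sign-flip permutation test gave p = 0.125, the smallest that 4 pairs allow, and 0.375 after Benjamini-Hochberg adjustment over the 3 gene pairs compared. On means of the 4 pairs, the excess held for 16 of 16 combinations of a Shmt1 and a Shmt2 probe set, by 0.55 to 2.18. In pair 4 alone the Shmt1 probe sets differed by 1.55 to 3.05 and those of Shmt2 by 0.98 to 1.95. Which gene was ahead in that pair thus depended on the probe sets.

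Mthfd1 exceeded Mthfd1l by 0.39 (SD 0.92) and Mthfd2 by 0.26 (SD 0.65, n = 4 pairs for both), each in 3 of 4 pairs, with exact permutation p = 0.5 (0.5 adjusted). Both are within the spread between pairs. Pair 4 set that spread: Mthfd1 was below Mthfd1l by 0.94 and below Mthfd2 by 0.66 there, while in pairs 1 to 3 it was above them by 0.67 to 1.15 and by 0.42 to 0.87. These values are those of the brightest probe sets. The other Mthfd1 probe sets differed by 0.70 and 1.13 in pair 4, against 1.21 for Mthfd1l and 0.93 and 1.16 for Mthfd2. On means of the 4 pairs, Mthfd1 was ahead in 3 of 3 probe set combinations with Mthfd1l and in 6 of 6 with Mthfd2. Without pair 4 the mean excess was 1.58 for Shmt1 over Shmt2, 0.83 for Mthfd1 over Mthfd1l and 0.57 for Mthfd1 over Mthfd2. Without pair 3 it was 0.94, 0.14 and 0.063. On the brightest probe set of each gene, the 2 cytosolic genes had their smallest difference in pair 4, and all 3 mitochondrial genes their largest. The medians in pair 4 were thus 1.03 and 1.21, against 1.97 and 0.91 in pair 1, 1.83 and 0.54 in pair 2, and 2.27 and 0.75 in pair 3. Every probe set of Mthfd1 and Mthfd2 followed this order. Some other probe sets of Shmt1 were smallest in pair 3, and some of Shmt2 were largest in pair 1.

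**Figure D3:**
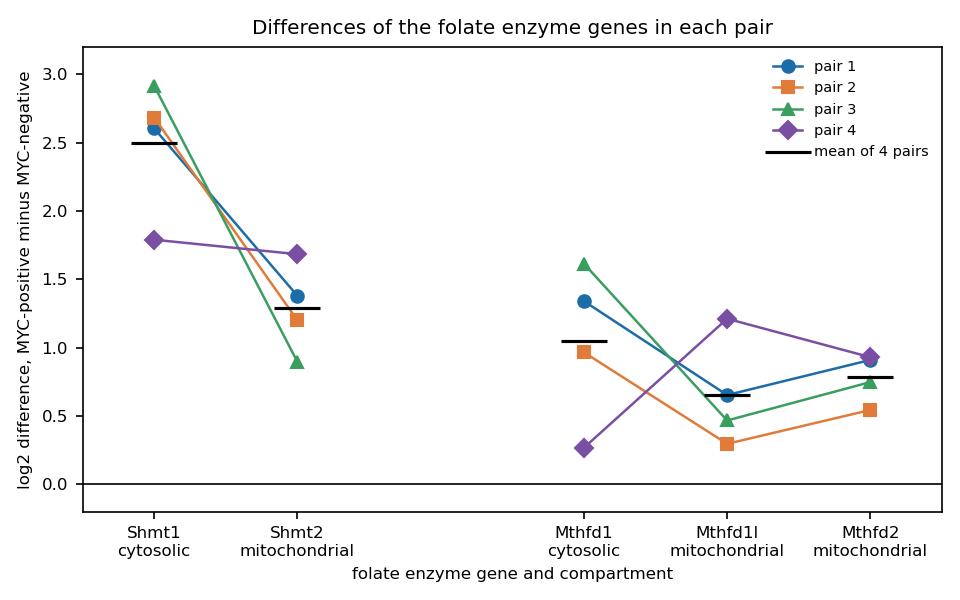
Log2 difference (MYC-positive minus MYC-negative, y axis) of the 5 folate enzyme genes; lines join the values of 1 stated pair and black bars are means of the 4 pairs. The lines of pairs 1 to 3 fall from Shmt1 to Shmt2 and from Mthfd1 to Mthfd1l, while that of pair 4 is nearly level in the former (1.79 and 1.68) and rises in the latter (0.27 and 1.21).

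The serine synthesis genes were higher by smaller amounts than Shmt1 and Slc19a1, with a median of 0.89. Phgdh, which encodes the first enzyme, read 1485, 2146, 2037 and 2508 in MYC-negative samples of pairs 1 to 4, and 4331, 4977, 4354 and 4901 in MYC-positive samples. These groups were clearly apart, and the MYC-positive samples were alike. The difference was 1.21 (SE 0.15, limma adjusted p = 0.00150), with 0.97 to 1.54 in the pairs. All 4 of its own probe sets were called, at 1.21 to 1.63, and a further pair of probe sets that the annotation also assigns to the genes Gm8096 and Gm6756 differed by 1.55 and 1.21.

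Psat1, the aminotransferase of the second step, read 4955, 5725, 6400 and 10376 in MYC-negative samples of pairs 1 to 4, and 8646, 8381, 11221 and 10700 in MYC-positive samples. The groups overlapped because the MYC-negative sample of pair 4 was higher than 2 of the MYC-positive samples. With 0.55 (SE 0.15, limma adjusted p = 0.0315) it had the smallest difference of the 10, and the pairs ran from 0.044 in pair 4 to 0.81 in pair 3. Its call ended without the pair as a block (0.114), without the intensity trend (0.135) and without pair 1, 2 or 3 (0.188, 0.119 and 0.0832).

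Psph, the phosphatase of the last step, read 563, 641, 689 and 663 in MYC-negative samples of pairs 1 to 4, and 1019, 1147, 876 and 1904 in MYC-positive samples. The MYC-negative samples were close together, while the MYC-positive sample of pair 4 was well above the rest. Its difference was 0.89 (SE 0.23, limma adjusted p = 0.0229), from 0.35 in pair 3 to 1.52 in pair 4, and adjusted p was 0.109 without pair 1, 0.108 without pair 2 and 0.0647 without the intensity trend. On the brightest probe set of each gene, the pairs thus did not rank alike within this short route: pair 4 was the smallest for Phgdh and Psat1 and the largest for Psph. The other Phgdh probe sets had their smallest difference in pair 2 or pair 3.

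Ahcy encodes the enzyme that clears S-adenosylhomocysteine, the by-product of methylation reactions. Its signals were 2825, 4136, 3322 and 3891 in MYC-negative samples of pairs 1 to 4, and 6364, 6498, 6225 and 8648 in MYC-positive samples. The groups were separate, with the MYC-positive sample of pair 4 above its group. Its difference was 0.97 (SE 0.14, limma adjusted p = 0.00271), a fold of 1.96 with a 95% interval of 1.57 to 2.44.

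Across all 25 probe sets of the 10 genes, every log2 difference was positive, from 0.55 to 2.96, and 22 passed the test over 45037 probe sets, where 4.06% of probe sets were called higher. The exceptions were the brightest probe set of Psat1 (adjusted p = 0.0556), the only one of Mthfd1l (0.0610) and the third of Shmt2 named above. Probe sets of 1 gene differed from each other by up to 0.85, in Shmt1. In 5 of the 7 genes with several probe sets (Phgdh, Psat1, Mthfd1, Mthfd2 and Slc19a1) the brightest, which stood for the gene, showed the smallest difference, as in Phgdh (1.21 of up to 1.63) and Mthfd1 (1.05 of up to 1.46).

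**Figure D4:**
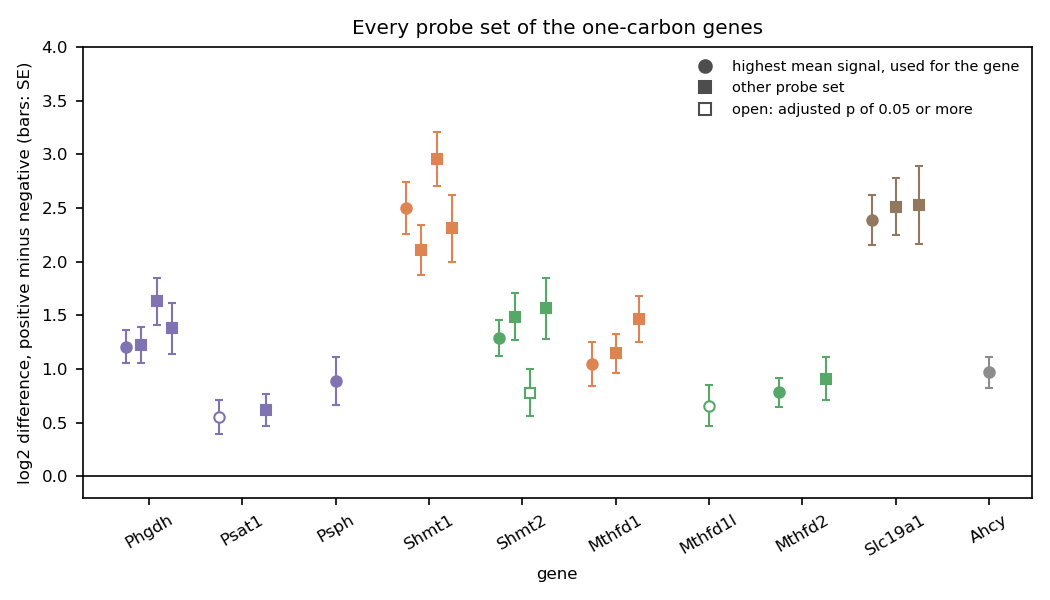
Log2 difference (MYC-positive minus MYC-negative) and SE of each of the 25 probe sets, by gene, coloured by role (violet serine synthesis, orange cytosolic, green mitochondrial, brown carrier, grey methionine cycle) and ordered by brightness within a gene; circles are the probe sets used for the gene and open symbols did not pass the test over all probe sets. Shmt1 and Slc19a1 lie above 2 with every probe set, and Psat1 and Mthfd1l are lowest.

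The rest of the pathway was read from a list of 55 further genes of serine, glycine, folate and methionine metabolism, of which 38 were tested. Of these, 13 were higher and 1 lower (34.2% higher, against 11.2% of all genes), with a median of 0.55. Unadjusted, 20 were higher and 3 lower at p under 0.05, against 17% and 19.2% of all genes. Beyond folate uptake at the cell surface, the mitochondrial folate carrier gene Slc25a32 was higher by 1.04 (SE 0.25, limma adjusted p = 0.0185), as were the mitochondrial serine transporter gene Sfxn1 (0.73) and the neutral amino acid transporter gene Slc1a4 (1.39). The call of Slc25a32 ended with probe sets averaged, without the intensity trend and without pair 1, 2 or 3 (adjusted p up to 0.112), that of Sfxn1 without pair 1 or 2 (up to 0.0588), and that of Slc1a4 with probe sets averaged (0.0555). Fpgs, which encodes the enzyme that traps folate in the cell with a glutamate tail, was higher by 1.71 (SE 0.37, adjusted p = 0.0126), from a dim signal of 48.3 to 158, and lost its call without pair 1 or 2 (up to 0.0883).

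Enzymes that spend folate-bound carbon on purines were higher: Atic by 1.41 and Gart by 1.26. Tyms, which spends it on thymidylate, was at 0.92 and did not pass (SE 0.35, adjusted p = 0.0925); it passed after quantile normalization, after median centring and without pair 4, and averaging its probe sets gave 0.096. Gcsh, which encodes the H protein of the glycine cleavage system, had the largest difference of the list (2.26, SE 0.16, adjusted p = 0.000354), with geometric mean signals of 824 and 3934. Gldc, which encodes the decarboxylase of that system, was below the filter on dim probe sets, and Mat2a was not analysed here. Of the mitochondrial folate enzyme genes in this list 0 of 3 passed, and the MTHFD2 relative Mthfd2l was at 0.27 (SE 0.42, adjusted p = 0.695) with signals of 35.6 and 42.8.

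On the methionine side Mtap (1.32), Enoph1 (1.17), both of methionine salvage, and the methionine synthase reductase gene Mtrr (0.91) were higher, while the synthase gene Mtr was at 0.65 (SE 0.32, adjusted p = 0.184). The other genes called higher were the serine racemase gene Srr (1.39), the DNA methyltransferase gene Dnmt3a (1.05) and the glycolytic gene Pgam1 (0.54). The gene that was lower was Pipox, which encodes a peroxisomal sarcosine oxidase, at -1.67 (SE 0.31, adjusted p = 0.00664). With probe sets averaged, Srr was at 0.31 and Dnmt3a at 0.32, neither passed, and 9 of the list were higher in place of 13. Without pair 1 the calls of Enoph1, Mtrr, Dnmt3a, Pgam1 and Pipox ended, and without pair 2 those of Mtrr, Dnmt3a, Pgam1 and Pipox; Mtrr and Pgam1 also lost theirs without pair 3 and without the intensity trend, and Pgam1 without the pair block.

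Genes of the ATF4 response, which in other settings raises Phgdh, Psat1, Shmt2 and Mthfd2, were read beside them. Of 16 tested, 2 were higher (12.5%, close to the 11.2% of all genes) and 0 lower by limma, or 3 and 2 before adjustment (17% and 19.2% of all genes), and the median was 0.051. The asparagine synthetase gene Asns was higher by 2.01 (SE 0.21, adjusted p = 0.000877) and the proline synthesis gene Aldh18a1 by 0.81 (SE 0.20, adjusted p = 0.0204), whose call ended without pair 1 or 2 and without the intensity trend (up to 0.112). Atf4 itself was at 0.35 (SE 0.17, adjusted p = 0.174) and passed only after median centring among the alternatives run.

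**Figure D5:**
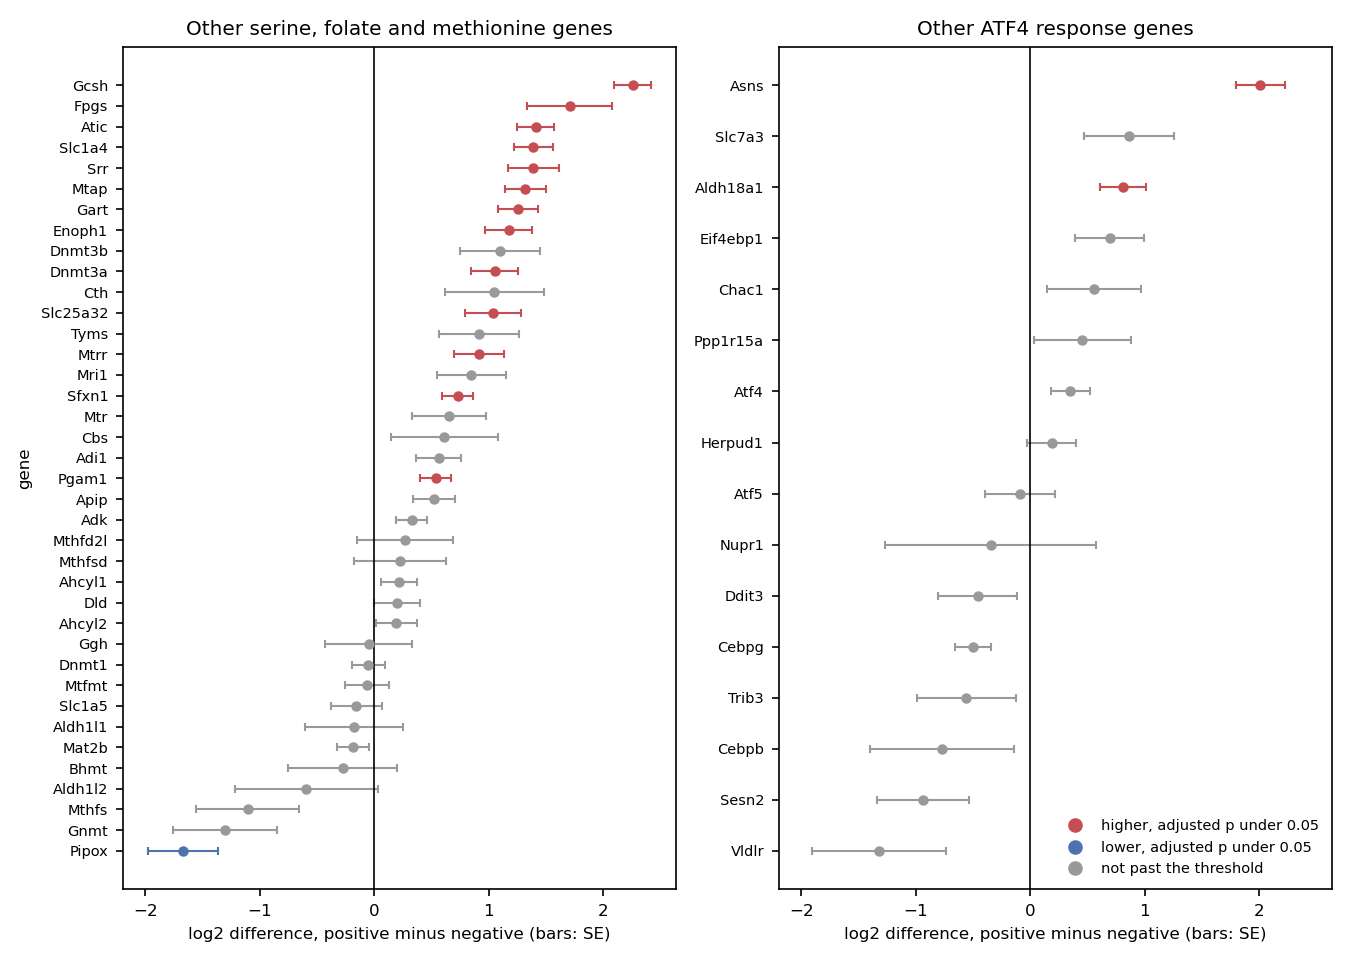
Log2 difference (MYC-positive minus MYC-negative) and SE of the 38 further pathway genes (left) and the 16 ATF4 response genes (right) that were tested, ordered by difference. Called genes are red (higher) or blue (lower): 13 and 1 on the left, 2 and 0 on the right.

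The average profile of the 10 genes over the 8 arrays was set against each of the other 11744 genes tested. The closest were Mif, Ppa1, Ccdc58, Tuba4a and Ebna1bp2, with Pearson r from 0.998 to 0.995, and they differed between the groups by 1.45, 2.60, 0.98, 1.49 and 1.30. These correlations describe arrays that share the group difference and the scaling, and carry no test.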

How the data were processed

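Each sample was read on 1 Affymetrix array, and the value deposited by the authors for a probe set is an intensity, linear and not logged. Per the submitters' processing notes the authors used MAS5; for its version, its scaling target and the genome build the entry is: not given in the sources used here. Per the labels' protocols, the arrays started from small RNA inputs (5 to 20 ng) that were amplified to cDNA. There were 45056 probe sets, 19 of them controls. The platform annotation gave 34945 probe sets 1 gene, 932 several and left 9160 unnamed here; RefSeq identifiers changed 0 symbols, and all 10 members matched RefSeq start regions.

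A floor of 1 preceded the log2 step. Probe sets with a mean above the 40th percentile of non-control probe sets (a signal of 18.7) were kept, and the one with the highest mean stood for each of 11754 genes. All 10 one-carbon genes passed this filter. The group effect, with the stated pair as a block, came from limma 3.58.1 under R 4.3.3 (lmFit, eBayes with intensity trend, 3 residual degrees of freedom). Tests were two-sided, with Benjamini-Hochberg adjustment over all genes tested; the probe set values used the same fit over 45037 probe sets. The pairs come from the descriptions, and deviations from the group means correlated within pairs at 0.26, 0.17, 0.088 and 0.12. No 2 arrays were identical. The procedure was tested on simulated data. The number of arrays limits the precision.

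The members, the lists and the tests were chosen with earlier results of these data known. Named were all 10 members, called members of the further lists, further genes chosen by name (Tyms, Mat2a, Mtr, Mthfd2l, Slc25a32, Gldc and Atf4), Myc, defining markers of the cell type lists (some also chosen after their values were seen) and the 5 closest profiles. Alternatives were quantile normalization, median centring, no filter, a filter at the 60th percentile, a floor or an offset of 16, the mean over probe sets, no pair block, no trend, and leaving out each pair.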

Additional observations from a re-analysis of the deposited data

Results flagged for a closer look

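In groups of 4, a sample was singled out where its gap to the nearest other sample exceeded Dixon's 95% critical share of the group's range; 93 such groups were examined, 4 were singled out, and chance gives about 1 in 20. The MYC-positive sample of pair 4 was high for Ahcy, at a log2 signal of 13.08 against 12.60 to 12.67 in the other MYC-positive samples. The same sample was high for Mthfd2l, at 6.30 against 5.04 to 5.22. The MYC-negative sample of pair 4 was low for Pipox, at 8.87 against 9.51 to 9.63. For Gart the log2 difference of pair 3 was 1.06, against 1.31 to 1.33 in the other pairs.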

How the results depend on the processing

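Over 13 alternatives all 130 values of the 10 one-carbon genes kept their direction, and 114 kept the call. Phgdh, Shmt1, Shmt2, Slc19a1 and Ahcy kept theirs in each; the others are given above. Of 16 other called genes 5 (Gcsh, Atic, Mtap, Gart and Asns) kept it in each and 11 did not, 9 of them without pair 1 or 2. Leaving out each pair gave 403 to 1742 genes higher and 352 to 2036 lower, 5 to 10 of the one-carbon genes, 6 to 19 higher and 0 to 2 lower of the further pathway genes, and 1 to 2 higher and 0 to 2 lower of the ATF4 genes. The lowest counts of genes called came without pair 1 and the highest without pair 4. Median centring gave 3204 genes higher and 546 lower, 24 further pathway genes and 5 ATF4 genes higher, and medians of 1.22 for the mitochondrial enzymes, 1.45 for the 10 genes and 0.38 for all genes. Quantile normalization gave 4 ATF4 genes higher and 1 lower, 2 further pathway genes lower, and a median of 0.087 for all genes. Without the intensity trend 736 genes were higher and 771 lower, with 6 one-carbon genes and 1 ATF4 gene higher. Without the pair block 901 genes were lower, 9 one-carbon genes were higher and 1 ATF4 gene was lower. No filter, the 60th percentile and the offset of 16 each called 1 ATF4 gene lower, and the floor of 16 called 2. Averaging probe sets put Mthfd2l at -0.033. The cause of these shifts was not tested beyond the fewer samples or other genes tested that each alternative itself brings. Dim signals were the least precise, with an SE of 0.42 for Mthfd2l at signals of 35.6 and 42.8.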
